A study of Mus musculus with 6 samples.

Results

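The 48 genes described here build the machinery that copies DNA and the enzymes that supply its nucleotides. They were taken by symbol from a list that sorts them by complex, and all 48 were found among the 55481 rows of the deposited expression table, each symbol once. The list was drawn up with earlier results of these data known. The cells came from skin squamous cell carcinomas of mice, induced with DMBA (a carcinogen) and TPA (a tumour promoter). The submitters isolated cells with high Itga6 (integrin alpha 6) and CD80, which the series text calls stem-like (Itga6hi CD80pos here), and cells with low Itga6 and no CD80, which it calls differentiated cancer cells (Itga6low CD80neg here). Each population had 2 libraries of polyA RNA, and a further population, Itga6hi CD80neg, was not analysed here. Strain, age, further gates and pooling of animals are not given in the sources used here. No label ties a replicate to its own animal, so each p-value reflects only how far these libraries spread, and that spread may be technical. The question behind the comparison, per the series text, is how the stem-like cells act on neutrophils.

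Replication is prepared in G1, when the origin recognition complex, with Cdc6 and Cdt1, loads the ring-shaped MCM2-7 helicase onto DNA; geminin (Gmnn) later blocks Cdt1 so that no origin is used again. At the start of S phase Cdc45 and the GINS complex turn the loaded ring into an active helicase, and the polymerases, the sliding clamp and the nucleotide enzymes follow. Many of these genes are known targets of the E2F transcription factors and are expressed mostly in cycling cells, whereas most origin recognition subunits are known to vary little through the cell cycle. In the epidermis the dividing cells lie mainly in the basal layer, where integrin alpha 6 is anchored.

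The promoters of these genes are shown first, since binding sites for E2F are a textbook feature of the group. RefSeq promoter windows on GRCm38.p6, from 250 bases before to 50 bases after the start site, were found for 40 of the 48 genes. They were searched on both strands for the letters TTTCCCGC, TTTCGCGC, TTTGCCGC or TTTGGCGC, 4 forms of the E2F motif. A match was found in 15 of the 40 genes (37.5%), against 2.60% of all 27025 genes with a window and 4.67% of the 9866 of them that were tested for expression. Among them were Mcm3, Mcm5, Mcm6 and Mcm7 of the helicase, 3 of the 4 genes of polymerases delta and epsilon with a window, and both licensing genes with a window. The letters were in none of the windows of replication protein A (3 genes), of the nucleotide enzymes (5) or of chromatin assembly factor 1 (2).

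Mcm5 and Mcm6 are shown for the 170 bases before their start sites, because in both a match on each strand overlaps the other by 4 bases. That arrangement was found in 4 of all 27025 genes and in 2 of these 40. Capitals mark the E2F letters. The Mcm5 stretch is chr8:75109339-75109508 on the plus strand, and the Mcm6 stretch is chr1:128359706-128359875 on the minus strand. These start sites are those of RefSeq. In the GENCODE M21 annotation both genes start further downstream, at chr8:75109569 and chr1:128359664, so the distances depend on the annotation.
Mcm5: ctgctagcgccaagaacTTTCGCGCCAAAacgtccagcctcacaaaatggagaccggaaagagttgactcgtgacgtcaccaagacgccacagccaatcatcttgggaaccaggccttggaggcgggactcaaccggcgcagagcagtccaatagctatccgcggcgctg
Mcm6: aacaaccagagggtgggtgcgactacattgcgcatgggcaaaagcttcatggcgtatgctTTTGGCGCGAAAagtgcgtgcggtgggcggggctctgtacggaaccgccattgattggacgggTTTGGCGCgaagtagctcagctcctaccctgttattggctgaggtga

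Sites of 30 bases from 7 other promoters are set beside them because they come from genes with large differences in expression (Mcm3, Cdt1), from the gene with the smallest (Orc3) and from genes between them. The Cdt1 and Mcm3 sites lie just after the start site, at chr8:122568035-122568064 (plus) and chr1:20820275-20820304 (minus). The Cdc6 site is at chr11:98908002-98908031 (plus), Orc1 at chr4:108579416-108579445 (plus), Orc3 at chr4:34614965-34614994 (minus), Pola1 at chrX:93632275-93632304 (minus) and Rfc3, with a match on each strand, at chr5:151651200-151651229 (minus).
Cdt1: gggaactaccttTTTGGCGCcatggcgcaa
Mcm3: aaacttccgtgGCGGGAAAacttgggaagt
Cdc6: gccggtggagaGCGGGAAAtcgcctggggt
Orc1: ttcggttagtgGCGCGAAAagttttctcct
Orc3: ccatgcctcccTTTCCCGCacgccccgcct
Pola1: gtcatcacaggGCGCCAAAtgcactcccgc
Rfc3: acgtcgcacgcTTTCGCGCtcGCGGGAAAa

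**Figure D1:**
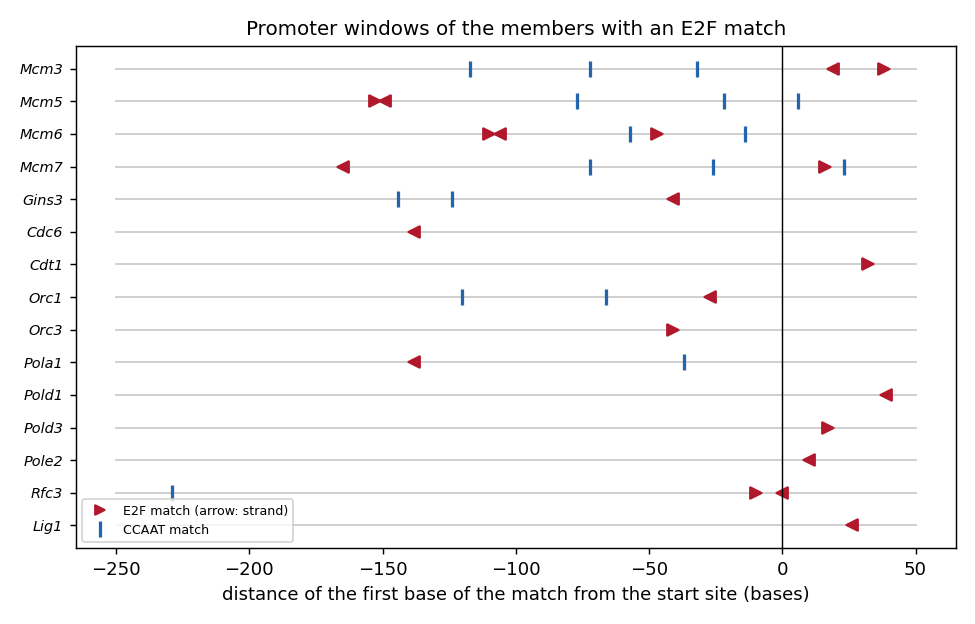
Positions of E2F matches (red arrows, pointing along their strand) and of CCAAT (blue bars) in the promoter windows of the 15 genes with an E2F match, as distance from the start site in bases. In Mcm5 and Mcm6 the arrows of both strands meet, and 3 of the 4 helicase windows also hold CCAAT between the E2F match and the start site.

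The letters CCAAT, the core of the NF-Y site, were found for 24 of the 40 genes (60.0%) and for 43.0% of tested genes. TTTGAA, the core of the cell cycle homology region of many G2 and mitosis genes, was found for 5 (12.5%) and for 14.5% of tested genes. A gene counted if any of its windows held the letters, and the 40 genes had 48 windows. The genes with an E2F match had a median log2 fold change of 2.48 and those without had 2.71. A match describes letters only, and binding was not measured.

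Every one of the 48 genes was higher in Itga6hi CD80pos on the deposited values. These are TPM, transcript levels per length scaled to a total of 1000000 in each library, which keep no record of depth, so the depth is unknown. Both Itga6hi CD80pos libraries stood above both Itga6low CD80neg libraries for 48 of 48 genes, which was also so for 73.5% of all genes tested. In limma on log2(TPM + 1), 48 of 48 passed a Benjamini-Hochberg adjusted p of 0.05, with adjusted p from 0.00280 to 0.0299, and 57.0% of 13474 genes tested passed in the same direction. None of the members was lower, as 9.48% of all genes were. Haemoglobin made up 70.9% and 50.4% of TPM in the Itga6low CD80neg libraries and at most 0.0185% in the Itga6hi CD80pos ones. Since TPM sums to a fixed total, a larger share of one transcript lowers the values of the others. The size of the difference was larger than that of most genes: the median log2 fold change was 2.56 for the members and 1.27 for all genes, and 26 of 48 members lay above the 90th percentile of all genes. The ratio of mean TPM ran from 2.22 to 35.2 with a median of 7.85, and it was at least 10 in 17 of 48 members and in 6.52% of all genes tested.

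**Figure D2:**
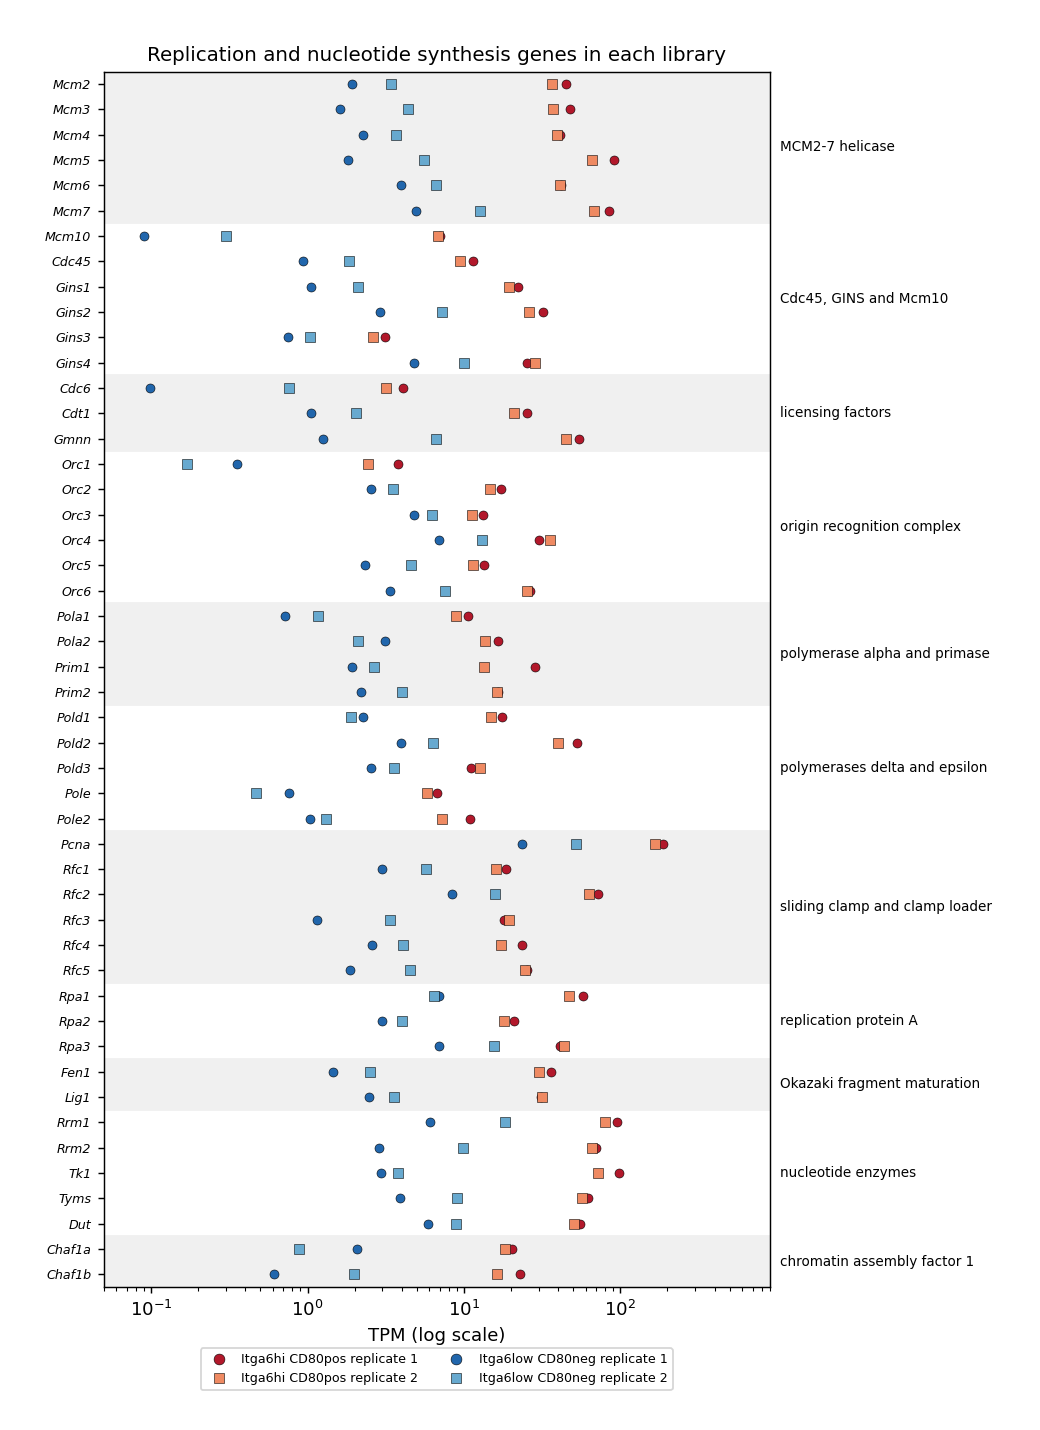
TPM of each of the 48 genes in the 4 libraries on a log axis, grouped by complex (red and orange, Itga6hi CD80pos; blue, Itga6low CD80neg). The red and orange points lie right of the blue points in every row, by the widest margin for Mcm10 and the narrowest for Orc3.

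The calls depended on how libraries were put on one scale and on single libraries. Under median-of-ratios scaling 30 of 48 members were higher (10.2% of all genes) and 0 lower (11.9%), under quantile normalization 25 (10.7%) and with haemoglobin genes left out of the total 23 (7.71%). Called under each of these and on deposited TPM were 18 of 48 members and 6.46% of all genes. These 18 were Mcm2 to Mcm7, Mcm10, Gins1, Cdt1, Pola1, Pold2, Fen1, Lig1, Rrm2, Tk1, Tyms, Dut and Chaf1b. The distance of the members' median from that of all genes was 1.29 on deposited TPM and 1.23 to 1.32 under these 3 scalings. On deposited TPM, all or most calls were lost without either Itga6hi CD80pos library, among the members and among all genes tested alike. Most were kept without either Itga6low CD80neg library. Each such fit leaves a lone library in its group. All 48 log2 fold changes stayed above 0 whichever library was left out. These losses hold for every call that follows.

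Markers of the sort and of other cells moved with the comparison. Itga6 had 178 and 339 TPM against 1.496 and 1.65 TPM, and Cd80 at 6.24 and 1.89 TPM against 0.642 and 0.563 TPM. Red blood cell markers summed to 198 and 70.2 TPM in the Itga6hi CD80pos libraries and to 711827 and 505329 TPM in the others, with 9 of 9 lower. Fibroblast markers summed to 103 and 146 TPM against 10879 and 7832 TPM, with 13 of 14 lower. Pan-epithelial markers (19 genes such as Cdh1, Dsp, Jup and Epcam) summed to 8784 and 8829 TPM against 592 and 2150 TPM, with 15 of 18 tested higher. Markers of macrophages and dendritic cells, of neutrophils, of lymphocytes and of endothelium and pericytes each summed to 16.8 TPM or less in every library. The part of these other cells in the members' differences was not tested. Fewer cells of a type and less RNA per cell cannot be told apart in bulk RNA.

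Few members passed the test relative to the epithelial markers. The summed TPM of the 48 members, divided by that of the pan-epithelial markers, was 0.201 and 0.172 in Itga6hi CD80pos and 0.260 and 0.139 in Itga6low CD80neg, so the groups overlapped. Sfn and Perp made up most of the marker sum in every library, so this ratio mainly follows them. Sfn had 4121 and 4114 TPM against 267 and 975 TPM, and Perp 1866 and 1940 TPM against 127 and 663 TPM. With libraries scaled to the same level of the 19 epithelial markers, 2 of 48 members were higher, Mcm5 and Tk1, and 0.943% of all genes were, while 33 of 48 members had a log2 fold change above 0 and 15 below. Both were also called under each of the 4 other scalings, as 0.936% of all genes were. By limma 0 members were lower, and 0 were so at an unadjusted p under 0.05. The members' median was 0.45 and that of all genes -0.82, a distance of 1.28. With this scaling, the members' calls were lost without either Itga6hi CD80pos library. Of the 48 members, 29 and 38 had a log2 fold change above 0 without Itga6hi CD80pos replicates 1 and 2. The numbers were 38 and 26 without Itga6low CD80neg replicates 1 and 2. The median of all genes was -0.88, -0.68, -0.53 and -1.23 in that order.

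**Figure D3:**
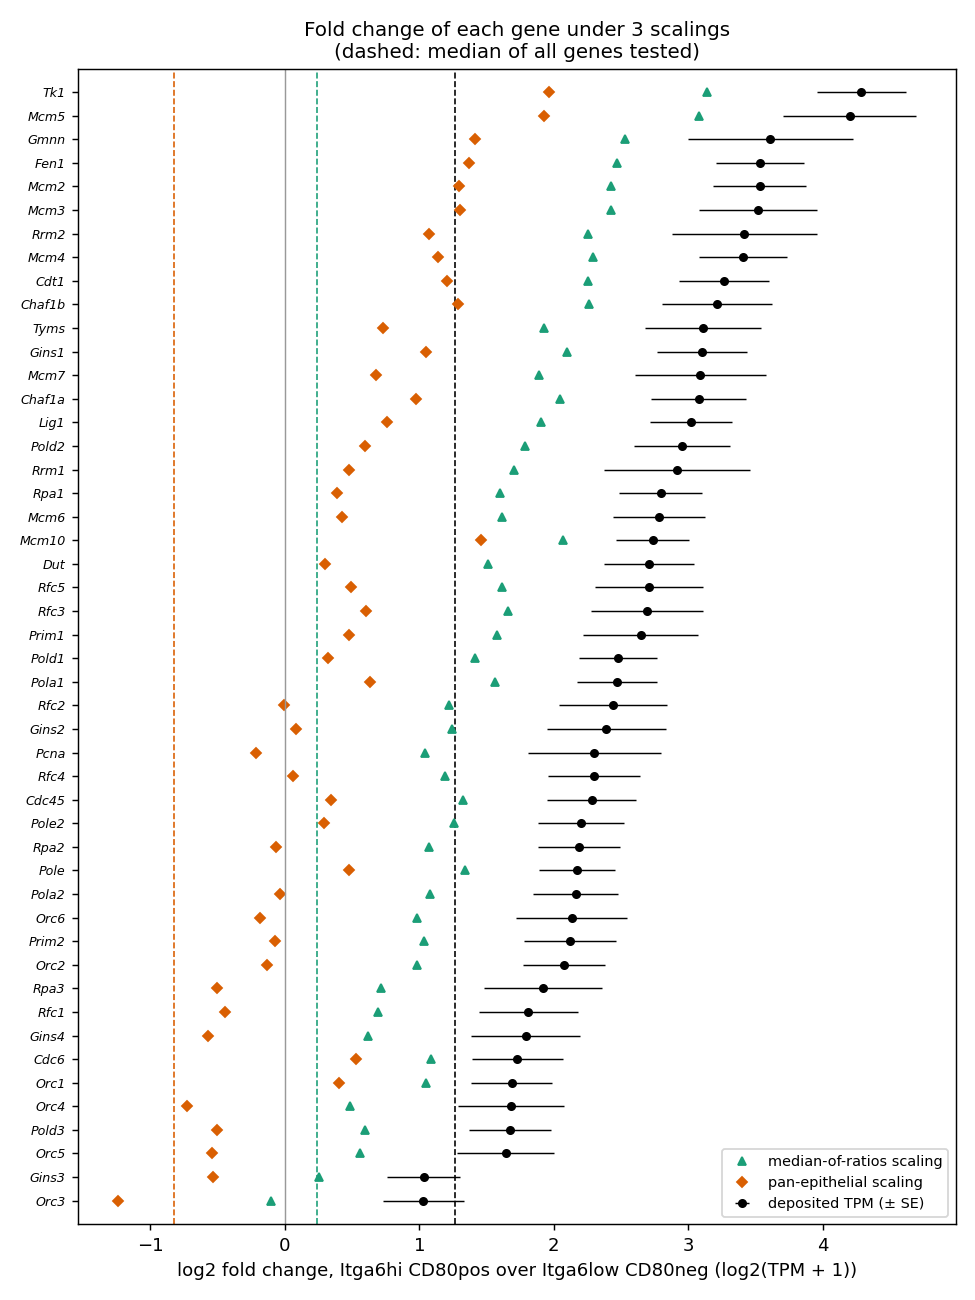
Log2 fold change of each gene (Itga6hi CD80pos over Itga6low CD80neg, log2(TPM + 1)) on deposited TPM with its SE (black), under median-of-ratios scaling (green) and under pan-epithelial scaling (orange). Dashed lines mark the median of all genes tested on each scale, 1.27, 0.24 and -0.82; Orc3 is the only gene left of 0 under median-of-ratios scaling.

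The helicase ring had the highest median log2 fold change of the 11 groups of members (3.46). That rank holds on log2(TPM + 1), which understates the change of low genes. The ratio of group mean TPM was larger for chromatin assembly factor 1, for licensing factors and for Fen1 with Lig1 than for the ring. The ring's subunits, Mcm2 to Mcm7, form a single hexamer, and 6 of 6 were higher on deposited TPM (57.0% of all genes). So were 6 of 6 under median-of-ratios scaling (10.2%), under quantile normalization (10.7%) and with haemoglobin left out (7.71%). Under pan-epithelial scaling limma called 1 of 6, Mcm5 (0.943% of all genes), and all 6 log2 fold changes were above 0. Mcm5 (chr8:75109569-75128439, plus strand, GENCODE M21 on GRCm38, as for all gene positions here) had 90.9 and 66.2 TPM in Itga6hi CD80pos and at 1.81 and 5.52 TPM in Itga6low CD80neg, a log2 fold change of 4.20 ± 0.49 (SE, n = 2 libraries each) with adjusted p = 0.00474 by limma. Relative to the epithelial markers it stood at 1.93 (adjusted p = 0.0305). Mcm2 had 45.2 and 36.4 TPM against 1.93 and 3.42 TPM, a ratio of means of 15.2. Mcm6 had the smallest ratio of means of the ring, at 41.8 and 41.2 TPM against 3.99 and 6.64 TPM (7.81). Over all 6 subunits the lower Itga6hi CD80pos library was at least 5.32 times the higher Itga6low CD80neg library, the smallest such gap being that of Mcm7. Mcm3, Mcm4 and Mcm7 had ratios of 14.1, 13.6 and 8.64. The 6 subunits lay closer together in Itga6hi CD80pos, where the highest was 2.19 and 1.86 times the lowest, than in Itga6low CD80neg, where it was 3.06 and 3.71 times the lowest. Mcm5 to Mcm6, a pair chosen after its values were seen, had a ratio of 2.17 and 1.61 against 0.454 and 0.832.

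Genes that turn the ring into an active helicase differed widely among themselves. Mcm10, which helps to fire loaded origins, had 7.04 and 6.82 TPM against 0.0906 and 0.303 TPM, the highest ratio of means of all members (35.2). Its log2 fold change was 2.73 ± 0.27 with a pseudocount of 1 and 4.67 with 0.1, since a pseudocount of 1 is large beside values this low. Under pan-epithelial scaling its log2 fold change was 1.46 (adjusted p = 0.0544). Cdc45, the partner of the ring, had 11.4 and 9.41 TPM against 0.931 and 1.84 TPM. The GINS genes encode the 4 subunits of a single complex, yet they spread from Gins1, at 22.1 and 19.3 TPM against 1.047 and 2.10 TPM (ratio 13.2), to Gins3, at 3.13 and 2.61 TPM against 0.7505 and 1.03 TPM (ratio 3.22). Gins4 had 25.4 and 28.3 TPM against 4.82 and 10.1 TPM (ratio 3.60) and Gins2 had a ratio of 5.69. Gins1 to Gins4 was 0.872 and 0.682 against 0.217 and 0.208, another pair chosen after its values were seen. Gins3 and Gins4 turned below 0 under pan-epithelial scaling (-0.53 and -0.57). Of these 6 genes, limma called 3 under median-of-ratios scaling (10.2% of all genes), Mcm10, Cdc45 and Gins1. It called the same 3 under quantile normalization (10.7%) and 2, without Cdc45, with haemoglobin left out (7.71%).

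Cdt1 and geminin, the loader and its inhibitor, both had a ratio of means above 10 on deposited TPM. Cdt1 had 25.3 and 21.0 TPM against 1.06 and 2.03 TPM, giving a log2 fold change of 3.27 ± 0.33 (SE, limma adjusted p = 0.00405). Gmnn had 54.4 and 45.1 TPM against 1.25 and 6.62 TPM, 3.61 ± 0.61 (SE, limma adjusted p = 0.00788), with the Itga6low CD80neg libraries far apart. The Gmnn call was lost under quantile normalization (log2 fold change 2.52, limma adjusted p = 0.0626). Under median-of-ratios scaling the log2 fold changes of Cdt1 and Gmnn were 2.25 and 2.53. Their ratio, Gmnn to Cdt1, was 2.15 in both Itga6hi CD80pos libraries and 1.18 and 3.25 in the others, so the groups overlapped. Cdc6, the ATPase that works with them, was low throughout, at 4.05 and 3.20 TPM against 0.0984 and 0.757 TPM, a ratio of 8.48. Its call was lost under median-of-ratios scaling (log2 fold change 1.09, adjusted p = 0.0915).

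The origin recognition complex had the smallest differences of the 11 groups of members. All 6 subunits were called higher on deposited TPM, as 57.0% of all genes were. Their median log2 fold change was 1.68, near the 1.27 of all genes. Under median-of-ratios scaling 0 of 6 were called (10.2% of all genes), and Orc3 turned to -0.10. By limma 1 of 6 was called under quantile normalization, Orc1 (10.7% of all genes). Under pan-epithelial scaling 5 of the 6, Orc2 to Orc6, lay below 0, without a call. Orc3 (chr4:34570796-34614944, minus strand) had 13.2 and 11.3 TPM against 4.78 and 6.24 TPM, giving a log2 fold change of 1.03 ± 0.30 (SE, limma adjusted p = 0.0299) and the lowest ratio of means of all members (2.22). Orc1, the subunit known to be made and destroyed with the cell cycle, had 3.77 and 2.44 TPM against 0.354 and 0.171 TPM, a ratio of 11.8. The other 4, Orc2, Orc4, Orc5 and Orc6, had ratios of 5.24, 3.30, 3.62 and 4.72. Orc1 to Orc3 was 0.285 and 0.217 in Itga6hi CD80pos and 0.0741 and 0.0274 in Itga6low CD80neg, a pair also chosen after its values were seen. Orc1 thus had the largest ratio and, in every library, the lowest TPM of the complex.

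A ratio of one complex to another inside a library is the same under any scaling that multiplies the whole library by 1 factor, which quantile normalization does not. The ratios were taken on deposited TPM. The mean TPM of Mcm2 to Mcm7 was 3.36 and 2.86 times that of Orc1 to Orc6 in Itga6hi CD80pos, and 0.813 and 1.03 times in Itga6low CD80neg. The same ratio was 4.37 and 3.88 against 1.28 and 1.70 for nucleotide enzymes, and 1.93 and 1.84 against 0.580 and 0.520 for Fen1 and Lig1. Licensing factors stood at 1.60 and 1.38 against 0.237 and 0.535, and chromatin assembly factor 1 at 1.24 and 1.03 against 0.397 and 0.244. Groups with a smaller shift were the clamp and its loader, at 3.29 and 3.05 against 1.99 and 2.44, and replication protein A, at 2.30 and 2.16 against 1.66 and 1.48. In all 10 ratios both Itga6hi CD80pos libraries lay above both Itga6low CD80neg libraries. All 10 share 1 denominator, the origin recognition complex, whose ratio of mean TPM between the populations (3.70) was the smallest of all groups. The 10 are therefore not independent, and a rise in each follows from that choice of denominator. The ratios are given as values without a test. With 2 libraries a group, the smallest two-sided p of an exact permutation test is 0.33.

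**Figure D4:**
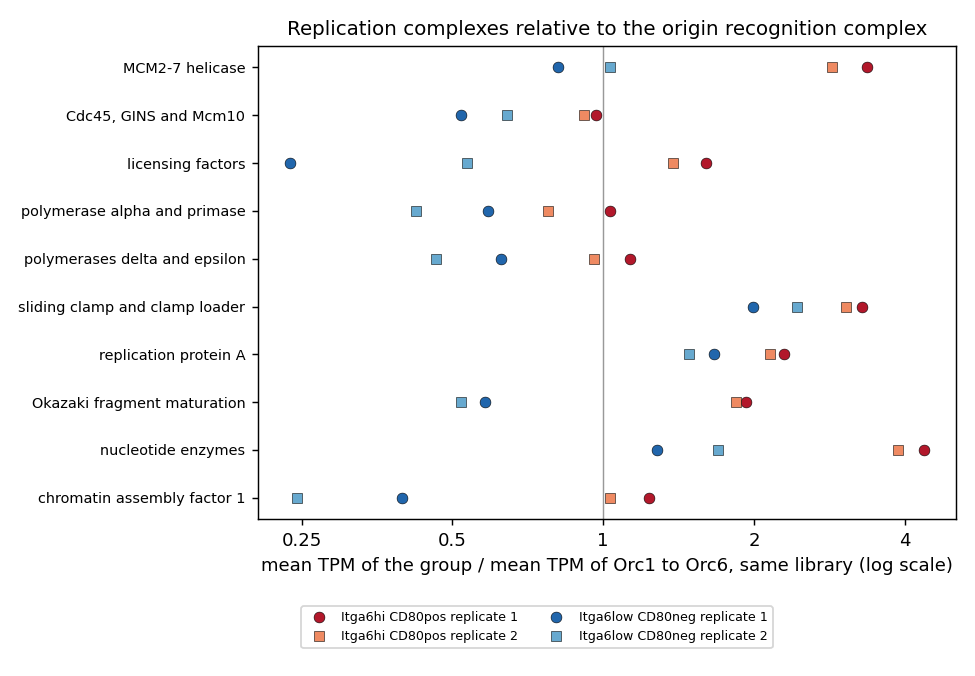
Mean TPM of each group of genes divided by the mean TPM of Orc1 to Orc6 in the same library, on a log axis, for the 4 libraries. The helicase, licensing, Okazaki, nucleotide and chromatin assembly groups show the widest gap between red or orange (Itga6hi CD80pos) and blue (Itga6low CD80neg), and replication protein A and the clamp group the narrowest.

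Polymerase genes lay between the helicase and the origin recognition complex. Pola1, the catalytic subunit of the polymerase that starts each strand, had 10.7 and 8.85 TPM against 0.719 and 1.18 TPM, giving a log2 fold change of 2.47 ± 0.30 (SE, limma adjusted p = 0.00489). Prim1, the primase subunit that makes the RNA primer, had 28.3 and 13.4 TPM against 1.94 and 2.66 TPM, the widest gap between Itga6hi CD80pos libraries among the polymerase genes. Its partners Pola2 and Prim2 had ratios of means of 5.77 and 5.29. Of these 4 genes, limma called Pola1 alone under median-of-ratios scaling (10.2% of all genes), where Prim1 stood at adjusted p = 0.0517. Pold2, an accessory subunit of the lagging-strand polymerase delta, had 52.5 and 40.0 TPM against 3.96 and 6.35 TPM (ratio 8.97). The catalytic Pold1 and the leading-strand Pole had lower levels, at 17.5 and 14.8 TPM against 2.28 and 1.88 TPM and at 6.75 and 5.78 TPM against 0.761 and 0.467 TPM. Pold3 had the smallest ratio of these 5 genes, 3.88, and Pole2 had 7.78. Under median-of-ratios scaling and under quantile normalization 4 of the 5 were called, all but Pold3, and with haemoglobin left out 1 was, Pold2. The shares of all genes called higher were 10.2%, 10.7% and 7.71% in that order.

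The sliding clamp was the most abundant product of the group and not among the most different. Pcna (chr2:132249162-132253314, minus strand), which rings DNA and holds the polymerases, had 187 and 168 TPM against 23.5 and 52.4 TPM, the highest TPM of the 48 in all 4 libraries, with a ratio of means of 4.68. Its log2 fold change of 2.30 ± 0.49 (SE, limma adjusted p = 0.0129) became 1.05 with median-of-ratios scaling (adjusted p = 0.0883) and -0.21 under pan-epithelial scaling (adjusted p = 0.639). Pcna has pseudogenes in the table, and reads shared with them were not resolved here. Of the clamp loader, Rfc1, its large subunit, had the smallest ratio (3.95) and Rfc3 the largest (8.33), at 18.1 and 19.5 TPM against 1.15 and 3.37 TPM. Replication protein A coats single strands: Rpa1 had 58.0 and 47.1 TPM against 6.94 and 6.42 TPM (ratio 7.87), Rpa2 had a ratio of 5.54 and Rpa3 one of 3.77. Of the 6 clamp and loader genes 4 were called under median-of-ratios scaling, 0 by limma under quantile normalization (5 at an unadjusted p under 0.05) and 3 with haemoglobin left out. Of the 3 replication protein A genes 2, 1 and 0 were called by limma in that order (2 in the last at an unadjusted p under 0.05), against 10.2%, 10.7% and 7.71% of all genes.

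Enzymes that finish Okazaki fragments, the short pieces of the lagging strand, had larger fold changes than the clamp they bind. Fen1, the flap nuclease, had 36.2 and 30.1 TPM against 1.47 and 2.51 TPM, giving a log2 fold change of 3.53 ± 0.33 (SE, limma adjusted p = 0.00353). Lig1, the ligase that seals the nick, had 31.0 and 31.8 TPM against 2.46 and 3.59 TPM (ratio 10.4). Fen1 to Pcna, chosen after its values were seen, was 0.193 and 0.180 against 0.0624 and 0.0478. Chaf1a and Chaf1b, subunits of the chaperone that places histones on new DNA, had ratios of 13.1 and 15.1. Both were called under median-of-ratios scaling and quantile normalization (10.2% and 10.7% of all genes). With haemoglobin left out (7.71%) Chaf1b was called and Chaf1a was not (limma adjusted p = 0.0754). Neither was called under pan-epithelial scaling. Chaf1a had 20.4 and 18.2 TPM against 2.08 and 0.882 TPM, one of few members with the higher Itga6low CD80neg value in replicate 1, whereas 42 of 48 were higher in replicate 2.

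Among the nucleotide enzymes the salvage kinase led. Tk1 (chr11:117815526-117826092, minus strand), the thymidine kinase of S phase, had 97.9 and 72.0 TPM against 2.95 and 3.81 TPM, giving a log2 fold change of 4.29 ± 0.33 (SE, limma adjusted p = 0.00280), the highest of all members and at the 99.7th percentile of all genes. Under pan-epithelial scaling it stood at 1.96 (adjusted p = 0.0345). Rrm2 and Rrm1 together form ribonucleotide reductase, which makes deoxynucleotides; Rrm2 is the subunit known to be limited to S phase. Rrm2 had 70.0 and 66.1 TPM against 2.86 and 9.81 TPM (ratio 10.7). Rrm1 had 95.2 and 79.7 TPM against 6.11 and 18.2 TPM (ratio 7.18). Their ratio, Rrm2 to Rrm1, was 0.735 and 0.829 against 0.468 and 0.538. This pair too was chosen after its values were seen. Most pairs chosen in that way did not overlap between the groups, so the ratio is given as values only. Tyms, which makes thymidylate, and Dut, which removes dUTP, had 61.9 and 56.6 TPM against 3.88 and 8.99 TPM and at 55.5 and 50.8 TPM against 5.91 and 8.91 TPM. By limma under median-of-ratios scaling 4 of the 5 were called, and Rrm1 missed the threshold (adjusted p = 0.0507). Under quantile normalization 4 were called, and with haemoglobin left out 5 were. Of all genes 10.2%, 10.7% and 7.71% were called higher in that order.

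**Figure D5:**
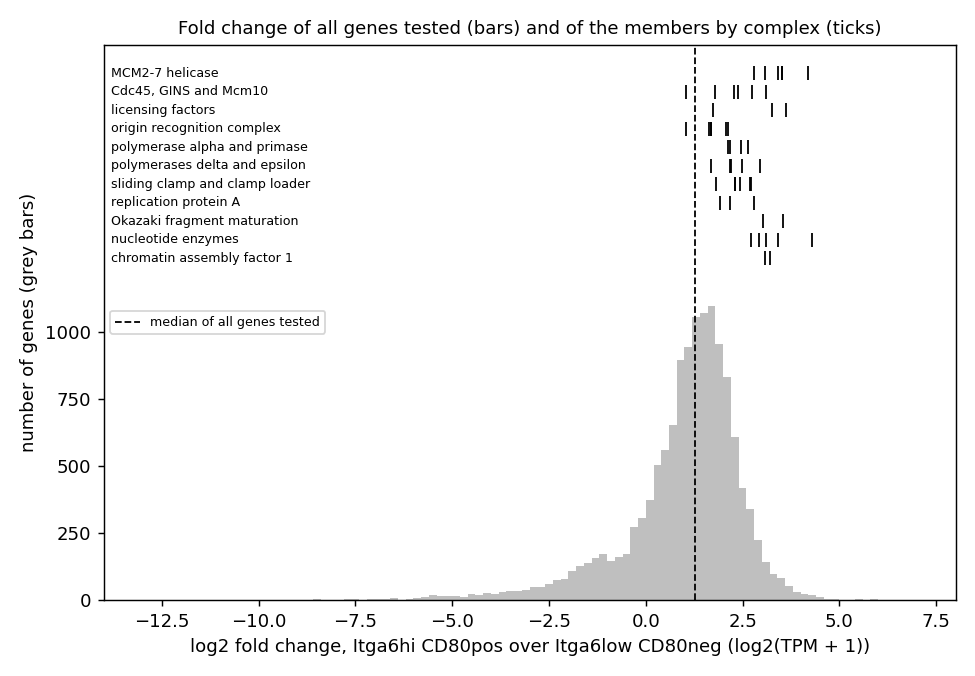
Distribution of log2 fold change over all 13474 genes tested (grey, deposited TPM, bins of equal width) with the members of each complex as ticks above it. The dashed line is the median of all genes, 1.27; 2 ticks, Orc3 and Gins3, lie left of it.

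Other genes of replication and nucleotide supply had lower median fold changes than the members. Their counts stand beside 57.0% of all genes higher and 9.48% lower on deposited TPM, and 10.2% and 11.9% under median-of-ratios scaling. Of 32 partners in origin firing and at the fork, 30 were higher on deposited TPM and 14 under median-of-ratios scaling, with a median log2 fold change of 2.07. Uhrf1, which guides methylation of new DNA, had 30.7 and 27.4 TPM against 0.921 and 1.79 TPM, and Asf1b, a histone chaperone, at 15.9 and 18.4 TPM against 0.522 and 1.32 TPM. Mms22l, a fork repair factor, had 12.2 and 11.4 TPM against 0.546 and 0.480 TPM. Of 32 further genes of nucleotide synthesis, 27 were higher and 1 was lower, and 14 and 2 under median-of-ratios scaling. Shmt1 and Shmt2, which feed one-carbon units to thymidylate and purines, had 40.2 and 32.6 TPM against 1.10 and 2.24 TPM and at 175 and 153 TPM against 9.56 and 19.1 TPM. Gart, an enzyme of purine synthesis, had 94.9 and 73.7 TPM against 6.48 and 7.996 TPM. The lower one was Cmpk2, a mitochondrial nucleotide kinase induced by interferon, at 0.125 and 0.372 TPM against 2.29 and 1.62 TPM.

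The regulators of these genes were divided. Of 16 tested E2F and Rb family genes, 11 were higher and 1 was lower on deposited TPM, and 5 and 1 under median-of-ratios scaling, with a median log2 fold change of 1.17 that lies under the 1.27 of all genes. The 11 of 16 is near the 57.0% of all genes higher on deposited TPM. E2f7 and E2f8, repressors that are themselves E2F targets, had 13.8 and 11.7 TPM against 0.710 and 0.490 TPM and at 14.2 and 11.2 TPM against 0.456 and 0.639 TPM. Tfdp1, a partner that E2F proteins need to bind DNA, had 128 and 101 TPM against 9.67 and 21.7 TPM. Tfdp2, the other partner, was lower. It had 8.50 and 6.06 TPM in Itga6hi CD80pos and 17.6 and 31.8 TPM in Itga6low CD80neg. On deposited TPM its log2 fold change was -1.59 ± 0.40 (SE, limma adjusted p = 0.0194). Under the 4 other scalings it was also called lower, with log2 fold changes from -2.74 to -3.87. Tfdp2 is also known to be expressed in erythroid cells, and red blood cell markers were higher in the same libraries; their part in the result was not tested. Of 11 tested polymerases of repair and lesion bypass, 7 were higher on deposited TPM, near the 57.0% of all genes, and 0 under median-of-ratios scaling, where their median was 0.31 and that of all genes 0.24. The largest of these, Polh, which copies past ultraviolet damage, had 14.3 and 11.7 TPM against 1.59 and 2.84 TPM, with adjusted p = 0.0584 under median-of-ratios scaling.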

How the data were processed

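Bulk polyA RNA of 4 libraries was analysed, 2 of Itga6hi CD80pos and 2 of Itga6low CD80neg cells. The deposited values are TPM, made by the authors with kallisto 0.44.0 and the mm10 build, per the submitters' processing notes; how transcripts were summed to genes is not given in the sources used here. TPM keeps no depth, so no counting error is given. From it log2(TPM + 1) was computed, genes under 1 TPM in all but 1 library or in every library were dropped (13474 stayed), and limma 3.58.1 under R 4.3.3 compared the groups (trended empirical Bayes, Benjamini-Hochberg adjustment, threshold 0.05, adjusted over all genes). A fold change on this scale understates the change of low genes. Libraries were also rescaled by median of ratios over 16860 genes, by quantiles, without haemoglobin, and to the geometric level of 19 pan-epithelial genes. The fit was tested on simulated data, and the outcome is not given here. All members were reported; of each further list, up to 3 higher and 3 lower genes of largest change were named. The members and lists were chosen with earlier results of these data known. Promoter letters were searched in RefSeq windows (GRCm38.p6). Alternatives tried were other scalings, pseudocounts and filters, a replicate block and leaving out each library.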

Additional observations from a re-analysis of the deposited data

How the results depend on the processing

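With 2 libraries a group and no depth in TPM, few degrees of freedom stand behind each call. On deposited TPM the distance between the members' median log2 fold change and that of all genes, 1.29, was 1.49 with a pseudocount of 0.1, 1.00 with 5, 2.48 with no filter on low values and 1.11 with a mean of at least 5 TPM. Without a filter 40 members and 4564 genes of all were higher, and a mean of at least 5 TPM left 613 genes lower and 43 of 43 tested members higher. Higher were 30 members and 1372 of all genes under median-of-ratios scaling, 25 and 1448 under quantile normalization, 23 and 1039 without haemoglobin, and 2 and 127 under pan-epithelial scaling, which had 2474 lower. For all genes the median, 1.27 on deposited TPM, was 0.24, 0.27, 0.16 and -0.82 in that order.

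Leaving out each library in turn gave 0 to 48 members higher, 0 to 8227 genes higher, 0 to 1237 lower and a distance of 1.12 to 1.45. Together with median-of-ratios scaling it gave 0 members and 0 genes in either direction without either Itga6hi CD80pos library. It gave 28 members, 1758 genes higher and 1529 lower without Itga6low CD80neg replicate 1, and 38, 3091 and 2059 without its replicate 2. The distance was then 1.13 without Itga6hi CD80pos replicate 1. In each of these the lone library is assumed to vary like the other group. Leaving out libraries together with pan-epithelial scaling was a combination added after seeing the data, and 0, 0, 6 and 9 members were higher as Itga6hi CD80pos replicates 1 and 2 and Itga6low CD80neg replicates 1 and 2 were left out, and in the last 2 were lower. The cause of these changes was not tested.

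The log2 fold change of Orc3 reversed to -0.10 under median-of-ratios scaling, to -0.14 under quantile normalization and to -0.22 without haemoglobin. With median-of-ratios scaling it was -0.10 without Itga6hi CD80pos replicate 1, 0.02 without its replicate 2, and -0.11 and -0.0642 without Itga6low CD80neg replicates 1 and 2. Under pan-epithelial scaling 15 members reversed, none of them called: Gins3 to -0.53, Gins4 to -0.57, Orc2 to -0.13, Orc3 to -1.24, Orc4 to -0.72, Orc5 to -0.54, Orc6 to -0.18, Pola2 to -0.034, Prim2 to -0.076, Pold3 to -0.50, Pcna to -0.21, Rfc1 to -0.45, Rfc2 to -0.0069, Rpa2 to -0.068 and Rpa3 to -0.50.

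With medians in place of means over subunits, the log2 difference of the ratio to the origin recognition complex was 1.65 for Cdc45, GINS and Mcm10, 0.79 for the clamp group, 0.84 for replication protein A and 1.89 for Okazaki maturation. A fit with the replicate block called 48 members higher, 8044 genes higher and 1452 lower. Same-numbered libraries share only a number: their deviations correlated at 0.11 over genes, from 2 pairs.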
